A study of Mus musculus with 12 samples.

Results

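The probes described here are 71 of the 25674 array probes in the value table deposited with this study of mouse embryonic stem (ES) cells. They were chosen by their readings: each was at least 2-fold higher in both BAF250b-/- knockout (KO) clones than in wild type (WT) at 72 h after passaging. At 18 h each differed from WT by no more than 0.3 on the log2 scale in both clones, and WT itself moved by no more than 0.3 between 18 h and 72 h. The choice used the mean of the 2 arrays of each group, so the gain in KO at 72 h and the flat values elsewhere are descriptions and were not tested.

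RNA was measured on 12 two-colour arrays that fall into 6 groups of 2. WT is the parental line, numbered 3 in the labels. The KO lines are clones 4 and 7, which carry the genotype BAF250b-/-. Each line was harvested at 18 h and at 72 h after passaging, and all share a mixed B6, 129 and CD1 background. The labels give an age of 2 months and blastocysts of 3.5 days post coitum as the stage. Each genotype rests on few lines, 1 for WT and 2 for KO, and no rescued line is among these samples. The letters A and B in the labels mark the arrays of each group apart from WT at 18 h, where both carry the letter A. What the letters stand for is not said, nor whether paired arrays stem from different cultures. Standard errors and p-values may therefore partly measure technical spread. The sample RNA was labelled with Cy3, and on every array the Cy5 channel held a reference pool of RNA from 11 mouse cell lines. Dyes were not swapped.

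BAF250b, the product of Arid1b, is a large subunit of SWI/SNF (BAF) complexes with an ARID domain that binds DNA. These complexes use ATP to slide or evict nucleosomes, and so open or close promoters and enhancers to transcription factors. In ES cells, which renew themselves and can give rise to all tissues of the embryo, BAF complexes are known to help keep the genes of the undifferentiated state on and to take part in the changes that come with differentiation. Passaged ES cells first attach and then grow into colonies, so the earlier and the later harvest sample the same lines at different points of a culture.

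Each probe is a designed 60-base oligonucleotide, and the files pair none of them with a gene symbol. Identifiers are therefore those of the array. The sequences of 7 of the probes with the largest gains are shown because they are what the arrays read out. Among the 20 with the largest gains these are the first with at least 1 reading frame free of stop codons and no AATAAA motif, read 5′ to 3′ as the files list them.
Z00036205-1: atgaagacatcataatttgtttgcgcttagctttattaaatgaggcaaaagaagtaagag
Z00017619-1: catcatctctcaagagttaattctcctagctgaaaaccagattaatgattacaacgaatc
Z00024712-1: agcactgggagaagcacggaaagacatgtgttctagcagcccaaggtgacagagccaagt
Z00013541-1: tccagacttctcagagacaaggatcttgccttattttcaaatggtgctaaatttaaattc
Z00066465-1: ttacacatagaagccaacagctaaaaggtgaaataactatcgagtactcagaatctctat
Z00009741-1: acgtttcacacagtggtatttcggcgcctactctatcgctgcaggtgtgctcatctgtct
Z00024628-1: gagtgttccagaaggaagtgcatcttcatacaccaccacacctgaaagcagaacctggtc
All 7 stand for different sequences, and none shares a stretch of 18 bases with another member.

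Probe Z00024712-1 is the member whose whole sequence could be placed with RefSeq's promoter windows of mouse build GRCm38.p6. It matches chr9:107550975-107551034 on the plus strand. That lies within the span of Zmynd10 (chr9:107546872-107551321, plus strand), a gene needed to assemble the dynein arms of motile cilia, 287 bases before its end. The next gene, Rassf1, a tumour suppressor of the Ras-association family, starts 400 bases beyond the probe at 107551434. The match came through the window of Gm34106, a long non-coding RNA gene read from the other strand. Over all probes, 291 of 42034 matched a window whole, so most members could not be placed this way. The transcript of the targeted gene, and the lists of pluripotency, endoderm, trophectoderm, mesoderm, ectoderm and fibroblast markers, were not analysed here, so the labelled genotype and cell type were not checked.

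Median sample intensity lay between 513.1 and 653 per array, against 402.6 to 416.4 for negative control spots. Per array, 89.9% to 97.3% of probes were brighter than 95% of those control spots. Replicate 2 of clone 7 at 72 h differed from the rest of the arrays: 10.4% of its probes lay in tiles of 10 by 10 spots where the reference channel departed from the other arrays by over 0.3, against 0% to 6.05% on the others. Of the members, 2 lay in such a tile on that array. Probe Z00031095-1 read -1.57 on the first clone 7 array at 72 h and -1.55 on that array, and probe Z00006388-1 read 1.60 and 1.49. The file headers show that scanner images of WT and clone 4 were extracted on the same day and those of clone 7 on another day. Clone 7 and extraction day thus cannot be told apart, and clone 4 can be set against WT within a day.

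The members are a minority of the probes that were higher in KO at 72 h. At least 2-fold higher in clone 4 were 320 probes of the value table, and 553 in clone 7, and 274 (1.07% of the table) were so in both. Of these 274, 125 already stood above the band of 0.3 in both clones at 18 h, 23 of them at least 2-fold. WT at 72 h lay above the band around WT at 18 h for 89 and below it for 18. The 71 members met neither description, which leaves 203 other gained probes. All 3 bands held 20382 probes of the table, and 188 of them were at least 2-fold lower in both clones at 72 h.

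Gains were mostly modest. The value table gave a median gain of 1.25 on the log2 scale in clone 4 and 1.32 in clone 7, with maxima of 2.38 and 2.45. In both clones 3 members gained at least 4-fold, a difference of 2, while 29 gained no more than 1.3. After background correction and loess normalisation of the scanner intensities, medians were 1.13 in clone 4 and 1.19 in clone 7. The fitted KO over WT ratio at 72 h ran from 1.77-fold to 4.39-fold with a median of 2.25-fold, and its standard error from 0.03 to 0.13 on the log2 scale. Over all 25674 probes the median differences were -0.01 and -0.02. Within the first extraction day, clone 4 minus WT was 0.80 at its lowest and 2.04 at its highest among the members. At 18 h the fitted KO minus WT difference ran from -0.22 to 0.23 with a median of 0.00, and 34 of 71 were above 0.

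All values per array below are log2 ratios of sample to reference after loess. Loess sets the trend of each array over intensity to 0, so 0 does not mean equal amounts in both. Above or below the reference here means above or below this 0. The members' median was -0.28 on both WT arrays at 18 h, -0.20 and -0.21 on the WT arrays at 72 h, -0.27 and -0.23 on the clone 4 arrays at 18 h, and -0.28 on both clone 7 arrays at 18 h. At 72 h it was 0.99 and 0.78 on the clone 4 arrays and 0.94 and 1.04 on those of clone 7. For each of the 71 members the 4 KO arrays at 72 h read higher than the other 8 arrays, by a gap of 0.44 at the least, 0.98 at the median and 1.87 at the most. The choice of members fixes that direction for the group means of the value table. Over all probes tested, limma called 32.1% between KO and WT at 72 h and 14.1% higher in KO, and nothing is read from the members' share. The arrays of a group lay close together: the median SD of 2 arrays was between 0.03 and 0.06 in the 6 groups.

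Many members passed the level of the reference pool. In WT at 18 h, 24 of 71 were above it, and in each clone at 72 h 60 of 71 (84.5%) were. In each clone at 72 h so were 81.8% of the other gained probes and 48.8% of the table. The choice requires a gain over WT at that time. Of the members that began below the reference, 35 stood above it in both clones at 72 h and 10 stayed below in both. The 188 probes lower in KO under the same bands began on the other side: 89.4% were above the reference in WT at 18 h, and 32.4% in clone 4 and 36.7% in clone 7 at 72 h. Of all probes listed, 49.7% were above it in WT at 18 h. Starting ratios spread widely, from -4.26 to 2.05. Of the members 26.8% began at least 2-fold below the reference, against 5.85% of the table and 29.1% of the other gained probes. Above the reference in WT at 18 h were 33.8% of members and 47.8% of the other gained probes. These shares were not tested against each other.

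Gains were found at both ends of the range of starting ratios to the reference. Probe Z00035586-1 read -4.29 and -4.24 in WT at 18 h, -4.33 and -4.35 in WT at 72 h, -4.31 and -4.32 in clone 4 at 18 h, and -4.08 and -4.22 in clone 7 at 18 h. At 72 h it read -2.94 and -2.96 in clone 4 and -3.02 and -2.83 in clone 7, higher than in WT but still far below the reference. Probe Z00062540-1 read 2.05 on both WT arrays at 18 h, 1.83 and 1.85 in WT at 72 h, 2.11 and 2.25 in clone 4 at 18 h, and 2.07 and 2.23 in clone 7 at 18 h. At 72 h it read 2.97 and 2.92 in clone 4 and 3.11 and 3.09 in clone 7. Its ratio was above the reference in every line and rose further in both clones at the later time. These pairs of values do not overlap between KO at 72 h and the other groups. Both probes were picked for their starting ratio after the values were seen. Their raw sample intensities in WT at 18 h were close, at 890 for Z00062540-1 and 845 for Z00035586-1. The 2 ratios therefore do not mark a high and a low sample signal in these cells.

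The 20 members with the largest mean gain in the value table are named here. The largest was Z00036205-1, with -0.18 and -0.29 in WT at 18 h, -0.20 and -0.21 in WT at 72 h, -0.28 and -0.20 in clone 4 at 18 h, and -0.08 and -0.31 in clone 7 at 18 h. It read 1.62 and 1.76 in clone 4 and 1.70 and 1.79 in clone 7 at 72 h, 3.79-fold over WT (log2 difference 1.92, SE 0.07). The 8 arrays outside KO at 72 h lie between -0.31 and -0.08, far below the other 4. Its raw sample intensity was low, at 445 in WT and 654 and 677 in the clones at 72 h, and without background correction the log2 difference was 0.75. Probe Z00017619-1 read 0.44 and 0.30 in WT at 18 h, 0.32 and 0.22 in WT at 72 h, 0.53 and 0.60 in clone 4 at 18 h, and 0.61 and 0.60 in clone 7 at 18 h. At 72 h it read 2.31 and 2.30 in clone 4 and 2.38 and 2.61 in clone 7. This was the largest fitted ratio, 4.39-fold (log2 difference 2.13, SE 0.07), and both clones were slightly above WT already at 18 h, by 0.22 in the fit.

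The probe within Zmynd10, Z00024712-1, read between -0.17 and 0.11 on the 8 arrays outside KO at 72 h. It read 1.75 and 1.59 in clone 4 and 1.93 and 1.92 in clone 7 at 72 h, 3.35-fold over WT (log2 difference 1.74, SE 0.06). Sample intensity was 456 in WT and 631 and 636 in the clones at 72 h, so this gain also rests on a dim probe, and without background correction the log2 difference was 0.65. Probe Z00013541-1, by contrast, was bright, with intensities of 2430 in WT and 9300 and 10000 in the clones at 72 h. It read -0.87 and -0.99 in WT at 18 h, -0.74 and -0.77 in WT at 72 h, -0.98 and -1.05 in clone 4 at 18 h, and -0.81 and -0.89 in clone 7 at 18 h. At 72 h it read 1.23 and 1.15 in clone 4 and 1.18 and 1.14 in clone 7, 3.80-fold over WT (log2 difference 1.93, SE 0.05). Thus it passed from below the reference to above it with the clones level with each other.

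Probe Z00064273-1 began above the reference, at 1.12 and 1.01 in WT at 18 h and 1.06 on both WT arrays at 72 h. At 18 h it was 1.14 and 1.12 in clone 4 and 1.21 and 1.22 in clone 7, and at 72 h it was 2.93 and 2.97 in clone 4 and 2.88 and 2.82 in clone 7. The ratio was 3.59-fold (log2 difference 1.84, SE 0.04), with little spread within each pair of arrays. Probe Z00009741-1 read -0.96 and -0.88 in WT, 0.77 and 0.78 in clone 4 and 0.69 on both clone 7 arrays at 72 h, a ratio of 3.14-fold. Probe Z00024628-1 read -0.94 and -0.88 in WT, 0.74 and 0.71 in clone 4 and 0.58 and 0.73 in clone 7 at 72 h, a ratio of 3.03-fold. The last 2 share their pattern of levels, below the reference in WT and above it in KO. Probe Z00033701-1 read -1.18 and -1.36 in WT, 0.79 and 0.45 in clone 4 and 0.58 and 0.49 in clone 7 at 72 h, 3.61-fold higher, with the widest spread between the clone 4 arrays among these.

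The remaining named members, apart from Z00066465-1, which was too dim in WT for a ratio, had fitted ratios between 2.26-fold for Z00025892-1 and 3.07-fold for Z00043680-1. Without background correction the log2 difference was smaller by over 1.5 times for 14 of the 20 named members and for 40 of all 71. Probe Z00036308-1 stayed below the reference throughout, at -2.55 and -2.54 in WT, -1.05 on the clone 4 array that was kept and a mean of -1.04 in clone 7 at 72 h. A flagged spot on the first clone 4 array at 72 h was left out, so its clone 4 value is 1 array. Probe Z00024457-1 likewise began low, at -1.17 and -1.19 in WT at 72 h, and reached 0.18 and 0.32 in clone 4 and 0.44 and 0.38 in clone 7 (2.85-fold). Ratios were 2.56-fold for Z00064529-1, 2.48-fold for Z00020508-1, 2.61-fold for Z00024053-1, 2.38-fold for Z00052761-1 and 2.26-fold for Z00025892-1, all on the fitted scale. For each of them KO at 72 h lay above the other 8 arrays. The choice sets limits on group means of the value table, so it makes this likely without requiring it of each array.

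Probe Z00048151-1 has a partner that the choice did not use. It shares 42 bases with probe Z00070395-1, which is on the arrays but not in the value table. The partner read -0.08 on both WT arrays at 18 h, -0.03 and -0.04 in WT at 72 h, -0.07 and -0.01 in clone 4 at 18 h, and -0.16 and -0.12 in clone 7 at 18 h. At 72 h it read 1.15 and 1.09 in clone 4 and 1.14 and 1.23 in clone 7. Its KO minus WT difference was 1.18 (SE 0.04) at 72 h and -0.01 (SE 0.04) at 18 h, beside 1.28 for the member at 72 h. Without background correction these were 0.61 for the partner and 0.50 for the member at 72 h. The 2 probes overlap in sequence and were hybridised with the same RNA, so they are repeated readings of a single target and not separate evidence.

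Brightness differed among the members and went with the size of the gain. On both WT arrays at 18 h, 44 members were dimmer than 2 times the level that 95% of negative controls stay under, and 27 were brighter. The dim share was 62% of members, beside 62.3% of the table and 65% of the other gained probes, so dimness was not particular to the members. The dim members had a median gain of 1.46 in the value table and the brighter ones 1.15. Without background correction those medians were 0.60 and 1.02, so the order turned. All 71 carried the scanner program's mark for a signal well above background on all 12 arrays, a mark that nearly every probe of these arrays carries, and none was saturated in either channel. On both WT arrays at 18 h 69 of 71 were brighter than 95% of the negative controls, and on both arrays of each clone at 72 h all 71 did. The other members at 18 h were Z00066465-1 and Z00048321-1, which has a flagged spot left out on the second WT array. The dimmest was Z00066465-1, at 411 in WT and 469 and 461 in the clones at 72 h, with 0 of 2 WT arrays at either time brighter than 95% of the negative controls. No ratio is given for it, and its log2 difference was 1.06 with background correction and 0.24 without. The sample channel taken alone put all 71 above WT in both clones at 72 h, 58 of them at least 2-fold in both. Over these probes the reference channel itself moved, by a median of 0.09 in clone 4 and 0.27 in clone 7 against WT at 72 h, beside 0.02 and 0.05 over the table.

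How far the 2 clones differed from each other at 72 h was fitted with limma over all probes. The choice did not name this difference but used the same arrays, since it asks both clones to exceed WT by at least 1 at 72 h. The members' calls are therefore conditioned by it and are given as a description. At an adjusted p of 0.05, 7 of 71 members (9.86%) differed, 6 higher and 1 lower in clone 7. Over all 42004 probes 4.86% differed, 2.82% higher and 2.04% lower in clone 7, and 5.7% over the probes of the value table. Among the 203 other gained probes it was 29.1%. The criteria decide which probes fall in each of these sets, so nothing is read from the order of the shares. The median of clone 7 minus clone 4 was 0.03 over the members, 0.14 over the other gained probes and 0.00 over the table, and 66 of 71 members lay within 0.3 of 0. At an unadjusted p of 0.05, 26 members (36.6%) differed, against 21% of all probes. The readings of the clones overlapped at 72 h in 28 of the 70 members with both arrays of each clone (40%), against 50.3% of the table.

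The clearest difference was in Z00034367-1, which read 0.66 on both clone 4 arrays and 1.17 and 1.24 on the clone 7 arrays at 72 h. In WT it was -0.40 and -0.29, and clone 7 exceeded clone 4 by 0.54 (SE 0.05, 1.46-fold, adjusted p from limma 0.00144). This member gained in both clones and gained more in clone 7. Its sample intensity was low, at 449 in WT, 519 in clone 4 and 560 in clone 7 at 72 h. Without background correction its gain over WT fell from 1.28 to 0.41. Over the alternatives its clone difference ran from 0.20 to 0.71. Probe Z00019075-1 read 1.25 and 1.23 in clone 4 and 1.72 and 1.52 in clone 7, a difference of 0.38 (SE 0.06, adjusted p from limma 0.0134). Probe Z00034206-1 read 0.31 and 0.26 in clone 4 and 0.56 and 0.59 in clone 7, a difference of 0.29 (SE 0.05, adjusted p from limma 0.0141). Probe Z00043680-1 read 2.07 and 1.96 in clone 4 and 2.28 and 2.36 in clone 7, a difference of 0.30 (SE 0.07, adjusted p from limma 0.0351). In all of these both clone 7 arrays lay above both clone 4 arrays. Smaller differences passed for Z00035360-1 (0.25, adjusted p from limma 0.0383) and Z00038210-1 (0.17, adjusted p from limma 0.0422). Probe Z00010228-1 went the other way, with 2.22 on both clone 4 arrays and 2.04 on both clone 7 arrays, a difference of -0.18 (SE 0.04, adjusted p from limma 0.044). Of the 7 members called, 5 were among the 44 dim ones and 2 among the 27 brighter ones.

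These calls rest on 2 arrays per clone and on a spread shared by all 12 arrays. The count of 7 fell with any array left out except replicate 1 of clone 7 at 72 h. Without that array some of the 7 calls were lost and other members were called instead. Each such fit leaves 1 array in a group. With limma on the 4 arrays compared alone the count of members called was 0. There 20 members (28.2%) had an unadjusted p under 0.05, against 15% of all probes. From the sample channel alone it was 16 members (22.5%), against 9.04% of the table. Without background correction 14.1% of members were called, against 3.95% of the table. With median centring these shares were 2.82% and 2.25%, and with Agilent's log ratio 5.63% and 5.32%. With the replicate number as a block they were 5.63% and 5.54%, so in these last 3 settings the members were near the table. Of 22 alternatives, Z00034367-1 passed in 21, Z00019075-1 and Z00034206-1 in 18 each and Z00043680-1 in 14. The alternative without a filter on dim probes could not differ from the main fit, since that filter took out 0 probes. For a group outside the clone comparison, leaving out either of its arrays gave the same result. Such alternatives repeat each other, so the 22 are not separate checks. Probe Z00035360-1 passed in 8, and Z00038210-1 and Z00010228-1 in 6 each, so these 3 calls were lost in most alternatives.

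In sequence the members were poor in G and C. Their median GC content was 38.33%, against 43.33% over the table, 40% both for the other gained probes and for the 188 lower ones. GC content had no visible relation to the gain within the members (Pearson's r 0.04 over 71 probes that share arrays). The letters AATAAA, searched on the listed strand, stood in 11 of 71 members (15.5%), against 7.5% of the table and 18.2% of the other gained probes. With ATTAAA added the shares were 22.5%, 10.7% and 21.7%. At least 1 of the 3 reading frames was free of stop codons in 66.2% of members, 82.1% of the table and 73.4% of the other gained probes. A GC content of 40% or less was found in 62% of members, 51.7% of the other gained probes and 39.3% of the table. None of these differences was tested.

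The limit of a 2-fold gain cut through a continuous range of values. Just inside it stood Z00027359-1, with gains of 1.064 in clone 4 and 1.004 in clone 7, Z00013030-1 with 1.008 and 1.154, and Z00014307-1 with 1.011 and 1.086. Just outside stood Z00023567-1 with 0.999 and 1.080, Z00006573-1 with 0.998 and 1.061, and Z00023878-1 with 1.082 and 0.996. Within 0.1 of the limit lay 22 members, and 42 further probes lay within 0.1 below it while meeting the 3 bands. Membership near the limit therefore depends on small differences. Of the 71, 41 met every criterion with each of the 12 arrays left out in turn, and 53 met it on the loess ratios. Only 5 met it on each of the 5 other sets of values tried, namely Z00019075-1, Z00010649-1, Z00015395-1, Z00010228-1 and Z00042946-1, which were picked out after their values were seen. Their fitted ratios were 2.89-fold, 2.54-fold, 2.30-fold, 2.24-fold and 2.17-fold. All 5 probes also met the criteria with each array left out. Agilent's log ratio, which is among the 5 sets, nearly repeats the value table. About the probe mean, 98.6% of member values were equal within 0.001, so that set could hardly remove a member.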

How the data were processed

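RNA of WT and BAF250b-/- ES cells was read on 12 two-colour arrays. Spot intensity values and the log10 ratio of red over green were deposited as written by Agilent Feature Extraction (version A.7.5.1 per the file headers). The deposited value table, on a log10 scale, was multiplied by 3.3219 to give log2. Its deviations from each probe's mean equalled those of the scanner's log ratio, turned in sign, within 0.001 for 93.6% of values. This gives scale and direction, while the level added per probe and the choice of its probes are not given in the sources used here. Column medians were 2.99 to 3.00.

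Intensities were corrected with normexp (offset 50) and loess (limma 3.58.1, R 4.3.3). Control and flagged spots were left out, and the sign was turned so that above 0 means more in the sample, relative to the array's trend. One mean per group was fitted over 12 arrays (residual degrees of freedom 6, prior 2.98), with Benjamini-Hochberg adjustment over all probes and a threshold of 0.05. No file gives gene names for probes, so the probe was the unit. Members and lists were chosen with earlier results of these data known. Named are the 20 probes with the largest mean gain, and the 3 nearest each side of the limit. On simulated arrays for clone 7 against clone 4 with 40905 probes, 24, 37, 49 and 49 of 50 probes changed 1.25-, 1.5-, 2- and 4-fold were recovered, with 7 false calls. The simulated noise was independent between probes and arrays, and few probes were changed. It held no tile, culture or extraction-day effect, so these counts do not measure how reliable the real clone calls are. Alternatives covered background, normalisation, channel, value table, filter, eBayes options, threshold, samples fitted, a block and each array left out. The filter on dim probes took out 0 probes, so its alternative repeats the main fit. The number of arrays limits the precision.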

Additional observations from a re-analysis of the deposited data

Results flagged for a closer look

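The gain over WT at 72 h differed between the KO clones for 7 members in limma's fit of clone 7 against clone 4, on arrays that the choice of members also used. These 7 are 9.86% of the members, against 5.7% of the table's probes, and 5 of them were dim in WT at 18 h. The difference of clone 7 minus clone 4 on the log2 scale was 0.54 for Z00034367-1, 0.38 for Z00019075-1, 0.29 for Z00034206-1, 0.30 for Z00043680-1, 0.25 for Z00035360-1, 0.17 for Z00038210-1 and -0.18 for Z00010228-1. Clone and extraction day cannot be told apart in these values. Over their 22 alternatives the highest adjusted p from limma ran from 0.11 for Z00034367-1 to 0.577 for Z00010228-1.

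A reading outside the value table also stood above WT. Probe Z00070395-1, which overlaps the member Z00048151-1 by 42 bases, differed between KO and WT by 1.18 at 72 h.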

How the results depend on the processing

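The list of members depended on the processing: 24 probes met the criteria without background correction (14 of them members), 410 with a gain of at least 1.5-fold, 41 with a band of 0.2 and 144 with a band of 0.5. It held 64 to 81 probes with each array left out, and of these 58 to 71 were members. It held 64 on the loess ratios (53 members), 58 on median-centred ratios (38), 49 on the sample channel (23) and 71 on Agilent's log ratio (71). Agilent's log ratio nearly repeats the value table, so that last count was close to fixed. The number of members that differed between the clones, 7 in the main fit, was 2 with median centring, 4 with Agilent's log ratio, 16 from the sample channel alone, 0 with the compared groups alone, 1 at an adjusted p of 0.01, and 1 to 7 with each array left out. Over all probes that comparison gave 2043 calls, against 848 with median centring, 3182 from the sample channel, 0 with the compared groups alone, 369 at 0.01 and 564 to 3751 with each array left out. With the compared groups alone limma has fewer arrays, and 20 members and 6283 probes had an unadjusted p under 0.05, against 26 and 8839 in the fit of all groups. At 72 h the sample channel alone gave 8817 calls between KO and WT (13494 with both channels) and 6638 between clone 4 and WT (11223). At 18 h the count of 5981 became 2987 at 0.01. With each array left out the counts ran from 10707 to 14437 for KO against WT at 72 h, 9050 to 11896 for clone 4, 11166 to 13986 for clone 7, and 2753 to 6712 at 18 h. For the other changes the cause was not tested.

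The replicate numbers were not used to pair the arrays in the main fit. Deviations of same-numbered arrays correlated between -0.156 and 0.364, and 2 of 15 pairs of groups were above 0.1. The highest was for clone 7 with clone 4 at 18 h. The lowest was for clone 7 at 18 h with clone 4 at 72 h. With the number as a replicate block, 4 members and 1990 probes differed between the clones (adjusted p from limma 0.0513 for Z00035360-1, 0.0578 for Z00038210-1 and 0.0501 for Z00010228-1), and counts of 13324, 11155, 13914 and 5873 probes differed from WT for KO, clone 4 and clone 7 at 72 h and KO at 18 h. Leaving out spots in departing tiles, an alternative chosen after seeing the data, gave 7 members and 2055 probes. No direction of the 20 named gains or of the 7 clone differences turned under the alternatives run. Both sets were picked for their size or call on these same arrays, so a turn was unlikely from the outset and nothing is read from this. The low signal of 44 members over the negative controls (62%, beside 62.3% of the table) and 2 arrays per group limit these values.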
